A study of Homo sapiens with 16 samples.

Results

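The vehicle control arm of a PARP inhibitor time course in MUTZ-3 cells comprised 4 of the 16 RNA-Seq libraries of the series. MUTZ-3 is an established human acute myeloid leukemia cell line with an inversion of chromosome 3 that places EVI1 (annotated as MECOM) under a GATA2 enhancer. The 4 libraries were chosen by their labels: untreated cells at 0 h, and cells that received the vehicle DMSO, the solvent of the inhibitors, for 12 h, 24 h or 48 h. The other 12 libraries held olaparib at 10 µM or talazoparib at 1 µM at the same 3 time points, and cells transduced with a non-targeting shRNA (NTC) or with shRNAs against EVI1 at day 3 and day 6. All cells grew in medium that contained fetal bovine serum, conditioned medium from a bladder cancer cell line and the cytokine GM-CSF. The DMSO concentration in the culture and any change of medium are not given in the sources used here.

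Each condition was a single library, so no test over samples was possible, and values are given as ratios. The ratios of DMSO to untreated differ in vehicle and in time at once, and these cannot be told apart, because no untreated library was taken at 12 h, 24 h or 48 h and no DMSO library at 0 h. The ratios between DMSO libraries differ in the label only by time. The comparisons with untreated share that 1 library, so a departure of it enters all 3 ratios in the same direction. In bulk RNA, fewer cells with a transcript and less of it per cell cannot be told apart.

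Levels are CPM, counts scaled to the library size after TMM normalization, and log2 ratios carry an exact binomial 95% interval that covers counting error only, not the spread between cultures. A gene counted as higher or lower at a log2 ratio of 1 or more in either direction, which is 2-fold. Of the 60623 genes in the files, 16892 had 10 or more counts in at least 2 of the 4 libraries and were used. Library totals ran from 63705916 to 72681943 counts, and 3 counts, taken as the detection floor, corresponded to 0.0413 to 0.0471 CPM before TMM scaling. The share of counts on mitochondrially encoded genes was 3.37% in the untreated library and 1.77% to 1.999% in the DMSO libraries, and the share on cytosolic ribosomal protein genes was 12.4% in the untreated library, 12.6% at 12 h and 17.9% at 48 h of DMSO.

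The cells kept a myeloid progenitor profile throughout. CD34, a surface antigen of hematopoietic progenitors, stood at 539.5, 381.3, 289.6 and 433.9 CPM at 0, 12, 24 and 48 h, and MPO, the myeloperoxidase of primary granules, at 2872, 1337, 1942 and 2541 CPM. Defining markers of lymphoid, epithelial and stromal cells were at 0. MS4A1 of B cells, CD8B of T cells, KLRD1 of NK cells, CDH1 and GRHL2 of epithelium, and COL1A2, DCN and LUM of fibroblasts had 0 counts in all 4 libraries. Other members of these lists were detected, among them CD79A with 825 to 1101 counts, IGHM with 700 to 1768 and NKG7 with 1075 to 1218. The summed level of the B cell list was 33.9 to 52.7 CPM, that of the fibroblast list 7.7 to 15.2 CPM, and that of the T and NK cell list 170 to 250 CPM, of which CD4, a gene that myeloid cells also express, held most. The urothelial and epithelial list summed to 130, 150 and 167 CPM along DMSO and was lower untreated, most of it from the keratin KRT17, whereas the epithelial adhesion gene EPCAM had at most 3 counts. Lists of other myeloid lineages were well above 0. The mast cell, basophil and eosinophil list summed to 867 to 1146 CPM, with CLC, the eosinophil and basophil galectin, at 44236 to 62398 counts and EPX at 2061 to 3372. The dendritic and Langerhans cell list summed to 574 to 1011 CPM, with the actin bundler FSCN1 at 31462 to 55437 counts, and the erythroid and megakaryocyte list to 478 to 844 CPM, with the transferrin receptor TFRC at 22054 to 46767 counts and ITGA2B at 5808 to 8369.

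Interferon-stimulated genes encode antiviral effectors and sensors. They are switched on when type I or type III interferon activates transcription factors, among them STAT2 and IRF9, that bind a short promoter element, or when cytosolic nucleic acid sensors activate IRF3 and IRF7, which bind a similar element. Immediate-early genes such as FOSB, EGR3 and the NR4A family are transcribed within minutes of a growth factor, serum or stress signal, with short-lived mRNAs. A vehicle arm records the level of both groups without the drug.

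Interferon-stimulated genes led the genes that rose steadily under DMSO. A steady rise was defined as a log2 ratio of 48 h to 12 h of at least 1, with both steps above 0 and their counting intervals free of 0. It held for 244 genes, 1.44% of those tested, against 6.57% that were 2-fold higher at 48 h than at 12 h without the condition on the steps. Of the 61 interferon-stimulated genes tested, 23 rose steadily, 33 were 2-fold higher at 48 h than at 12 h, and 0 were 2-fold lower. The list median of the log2 ratio of 48 h to 12 h was 1.06, beside 0.04 over all genes tested. Most of the difference fell after 24 h: the list median was 0.15 from 12 to 24 h and 0.94 from 24 to 48 h.

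IFI44L, the gene with the largest ratio among the named steady risers (chromosome 1, 78619922 to 78646145, plus strand, GRCh38), stood at 3.26 CPM untreated and at 1.97, 4.43 and 25.5 CPM at 12, 24 and 48 h of DMSO. Its log2 ratio of 48 h to 12 h was 3.69 (95% counting interval 3.44 to 3.96). IFIT1, which binds viral RNA lacking proper capping, was at 17.4 CPM untreated and at 16.4, 27.1 and 119 CPM along DMSO, a log2 ratio of 2.87 (2.78 to 2.96). Both genes were lowest at 12 h and highest at 48 h, and their 48 h libraries exceeded the untreated level. IFIT1 overlaps LIPA in the annotation, and whether the authors counted by strand is not given in the sources used here.

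ISG15, a ubiquitin-like modifier induced by interferon, was at 65.9 CPM untreated and 46.0, 70.7 and 172 CPM along DMSO. IFI6, a mitochondrial and endoplasmic reticulum antiviral protein, was at 148 CPM untreated and 101, 156 and 368 CPM along DMSO. Each dipped below the untreated library at 12 h, with log2 ratios of -0.52 and -0.55, and then stood above it at 48 h, with 1.39 and 1.31. The same course held for IFI44, with a log2 ratio of 48 h to 12 h of 2.78, and for OASL, an oligoadenylate synthetase-like protein, with 2.22. IFIT5, at 3.69 CPM untreated and 4.55, 5.81 and 20.6 CPM along DMSO, had 2.18 and was not lower than untreated at 12 h.

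Regulators of the pathway were also higher at 48 h. IRF7, the transcription factor that amplifies interferon production, was at 29.2 CPM untreated and 21.6, 26.5 and 47.4 CPM along DMSO. It was within the steady rise, with a log2 ratio of 48 h to 12 h of 1.13. IRF9 went from 1.37 to 3.39 CPM between 12 and 48 h and STAT2 from 35.1 to 62.4 CPM, the former a 2-fold difference and the latter not. Among the sensors, DDX58 (RIG-I) went from 13.4 CPM at 12 h to 44.9 CPM at 48 h and IFIH1 (MDA5) from 16.2 to 33.8 CPM. Transcripts of the interferons were scarce. Of 22 interferon genes in the files, 19 had 0 counts in the 48 h library, and the highest, IFNB1, had 1, 2, 4 and 12 counts at 0, 12, 24 and 48 h, of which those at 0 and 12 h are under the floor of 3 counts. The receptor gene IFNAR1 had 2328, 2682, 3076 and 2680 counts. These ligands and receptors were looked up after the other values had been seen.

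The element bound by the interferon-activated factors was looked for as GAAA, any 2 bases and GAAA, on both strands of the RefSeq promoter windows (250 bases before to 50 after the start site, GRCh38.p14). It was present in 3.65% of all 27305 promoters and in 3.03% of those of the genes tested. Of the 45 interferon-stimulated genes that matched a promoter, 62.2% held it. Among the interferon-stimulated genes in the steady rise, 11 of the 14 with a promoter held it (78.6%), and among the other steady risers 7 of 136 (5.15%). The windows below, 30 bases each and read 5′ to 3′ along the gene, are shown because they belong to 6 of the steady risers described above, and the capitals mark the element or its reverse complement:
IFI44L, chr1:78620365-78620394 (plus strand): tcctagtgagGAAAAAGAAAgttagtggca
IFIT1, chr10:89392510-89392539 (plus strand): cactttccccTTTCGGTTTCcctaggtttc
IFI44, chr1:78649759-78649788 (plus strand): gggcacactgagTTTCAGTTTCctttctct
IFIT5, chr10:89414513-89414542 (plus strand): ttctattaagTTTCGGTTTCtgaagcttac
ISG15, chr1:1013380-1013409 (plus strand): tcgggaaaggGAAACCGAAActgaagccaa
IFI6, chr1:27672329-27672358 (minus strand): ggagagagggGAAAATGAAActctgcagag

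The element lay 63 bases before the start site in IFI44L, 93 in IFIT1, 8 in IFI44, 35 in IFIT5, 97 in ISG15 and 146 in IFI6, counted from the end of the element. IFI44L carried the same 30 bases once more, 154 bases before its start, and IFI6 held the element 3 times. A match describes letters in a window and does not show that a factor was bound. Genes of the list that held the element also include members with small ratios, such as TAP1, the peptide transporter, whose log2 ratio of 48 h to 12 h was 0.15, and LGALS3BP with 0.22.

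**Figure D1:**
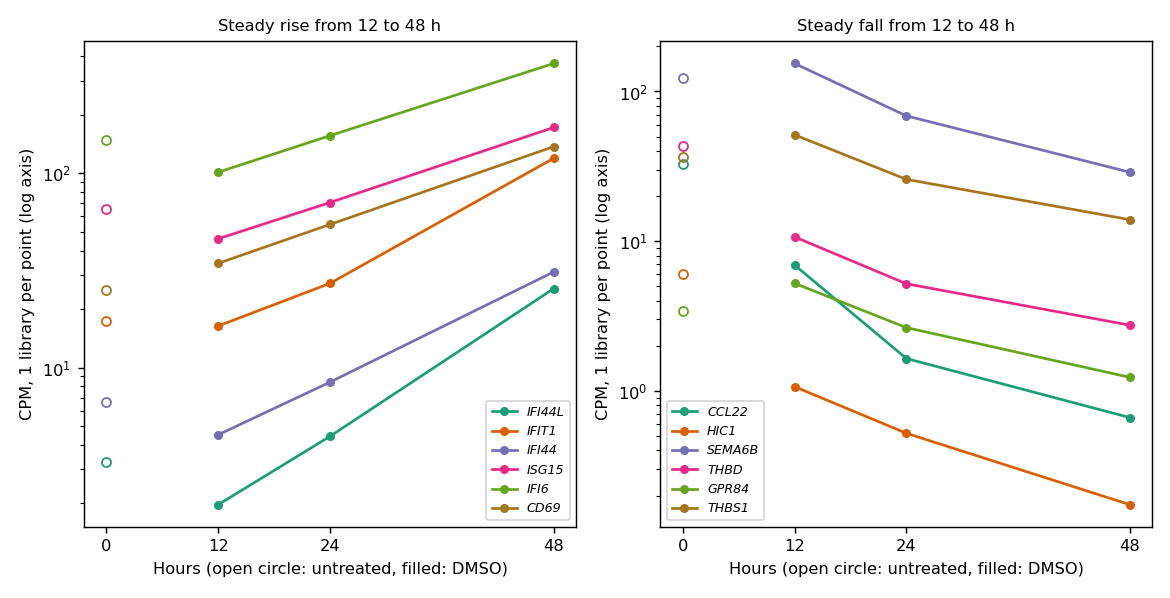
Level in CPM on a log axis against hours for 6 genes of the steady rise (left) and 6 of the steady fall (right), 1 library per point, with an open circle for the untreated library and filled circles joined by lines for DMSO. IFI44L, IFIT1, IFI44, ISG15 and IFI6 lie below or near their untreated level at 12 h and above it at 48 h, and CCL22, HIC1 and THBD lie below untreated already at 12 h and go on falling.

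Genes outside the interferon list also rose steadily. CD69, an early activation antigen of leukocytes (chromosome 12, 9752486 to 9760901, minus strand), was at 25.1 CPM untreated and 34.4, 54.5 and 137 CPM along DMSO. TNFSF13B (BAFF), a myeloid cytokine for B cells, was at 3.79, 7.14 and 14.4 CPM along DMSO, and ABCA6, a lipid transporter of the ABCA family, at 6.98, 12.1 and 27.3 CPM. SIGLEC1, a sialic acid receptor of macrophages, was counted with the interferon list and so does not belong to these genes. It was at 10.7 CPM untreated and 3.73, 5.80 and 16.5 CPM along DMSO. Outside that list, TMEM236 went from 4.42 to 19.8 CPM and SPEF2, a sperm flagellar protein, from 2.04 to 8.02 CPM between 12 and 48 h. Of the 244 risers, 104 were below 5 CPM in all 4 libraries, beside 6558 of the 16892 genes tested. Genes of low level were thus common in the group and among all genes tested.

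Genes of the amino acid and integrated stress response, the targets of ATF4, had a different course. The list of 27 tested genes was lower than untreated at 12 h, with a median log2 ratio of -0.93 and 13 genes 2-fold lower where 6.49% of all genes were. The median against untreated was -1.14 after 24 h and -0.11 after 48 h. From 24 to 48 h it was 1.02, with 14 of 27 genes 2-fold higher where 3.96% of all genes were higher and 1.78% lower. ATF4 itself was at 907, 388, 413 and 769 CPM at 0, 12, 24 and 48 h. DDIT4, an inhibitor of mTORC1, was at 415 CPM untreated, at 33.7 and 38.1 CPM at 12 and 24 h, and at 117 CPM at 48 h. PHGDH, the first enzyme of serine synthesis, was at 116, 88.0, 70.0 and 200 CPM, PCK2, the mitochondrial PEP carboxykinase, at 118, 80.9, 89.5 and 207 CPM, and SLC7A11, the cystine transporter, at 31.8, 8.33, 5.66 and 25.5 CPM. Both ends of the course were thus high and the middle low for SLC7A11 and ATF4, and 5 of the 27 genes met the steady rise.

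The composite element of ATF4 and C/EBP, searched as TGATGNAA on both strands, was in 5 of the 22 promoters found for this list (22.7%). It was in 3.67% of all promoters and in 1.72% of those of the genes tested. One is shown for ASNS, the asparagine synthetase, whose level was 1.84, 0.526, 0.439 and 2.41 CPM at 0, 12, 24 and 48 h, with the element in capitals 60 bases before the start:
ASNS, chr7:97872458-97872487 (minus strand): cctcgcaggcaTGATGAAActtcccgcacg

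Smaller differences between 12 h and 48 h of DMSO were shared by most members of some other gene groups. All but 1 of the 79 cytosolic ribosomal protein genes were above 0 for 48 h to 12 h, with a median log2 ratio of 0.50, and 0 of them were 2-fold higher. RPL3 was at 4008.5, 4403 and 5387 CPM along DMSO. Of 13 MHC class II genes, 12 were above 0 for 48 h to 12 h, with a median of 0.39. From 12 to 24 h, 4 of the 13 were above 0, with a median of -0.07, and the median from 24 to 48 h was 0.44. Against untreated the list median was -0.54 at 12 h and -0.07 at 48 h. The 2 members that rose steadily were HLA-DRA, at 646, 803 and 1349 CPM along DMSO, and HLA-DMB, at 19.2, 22.6 and 43.6 CPM. All 13 primary granule genes tested were above 0 for 48 h to 12 h, with a median of 0.72, and their median from 12 to 24 h was 0.57. Against untreated their median was -0.79 at 12 h and -0.09 at 48 h. ELANE, neutrophil elastase, was at 8.45, 3.83, 8.45 and 8.52 CPM at 0, 12, 24 and 48 h, so that its 12 h library alone stood low.

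The genes that fell steadily from 12 to 48 h numbered 185, 1.1% of those tested, beside 3.06% that were 2-fold lower at 48 h than at 12 h. CCL22, a chemokine of dendritic cells and macrophages (chromosome 16, 57358783 to 57366189, plus strand), had the largest ratio of the named fallers. It stood at 32.8 CPM untreated and at 6.93, 1.65 and 0.663 CPM at 12, 24 and 48 h, a log2 ratio of 48 h to 12 h of -3.37 (95% counting interval -3.88 to -2.93). THBD, the thrombin receptor thrombomodulin, was at 43.1 CPM untreated and 10.7, 5.20 and 2.75 CPM along DMSO. HIC1, a transcriptional repressor that overlaps SMG6 in the annotation, was at 5.99 CPM untreated and 1.07, 0.521 and 0.174 CPM. These 3 genes were thus highest in the untreated library and lower at each later time.

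Another set was at or above its untreated level at 12 h and fell from there. SEMA6B, a semaphorin, was at 123 CPM untreated and 154, 68.7 and 28.9 CPM along DMSO, a log2 ratio of 48 h to 12 h of -2.41 (-2.49 to -2.34). CD180, a Toll-like receptor homolog, was at 3.12 CPM untreated and 9.32, 4.80 and 2.73 CPM. ITGB7, an integrin of leukocyte homing, was at 6.95 CPM untreated and 13.3, 7.12 and 3.60 CPM, GPR84, a receptor for medium-chain fatty acids, at 3.39 CPM and 5.23, 2.65 and 1.23 CPM, and FGR, a Src family kinase of myeloid cells, at 5.61 CPM and 8.25, 6.47 and 2.21 CPM. In this set the 12 h library was the highest of the 4.

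THBS1, the matrix protein thrombospondin 1, was at 36.7 CPM untreated and 51.4, 25.9 and 13.9 CPM along DMSO, and ACP5, an acid phosphatase of osteoclasts and macrophages, at 11.1 CPM and 15.7, 5.87 and 3.23 CPM. ACP5 overlaps ZNF627. The neutrophil oxidase subunit copies NCF1B and NCF1C had log2 ratios of 48 h to 12 h of -1.93 and -1.73, and NCF1 of -1.64. These are near-identical copies, so their counts could have been split between them. CD14, the monocyte lipopolysaccharide coreceptor, was at 6.56 CPM untreated and 8.30, 5.53 and 2.87 CPM, and CEBPA, a myeloid transcription factor, at 98.6 CPM and 131, 102 and 60.2 CPM. MECOM, the driver oncogene of this line, was at 29.1, 49.9, 50.8 and 63.9 CPM at 0, 12, 24 and 48 h, outside the steady rise, with a log2 ratio of 48 h to 12 h of 0.36 (0.29 to 0.42).

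Ribosome biogenesis genes and MYC targets had a median log2 ratio of 48 h to 12 h of -0.71, with 1 of 26 genes tested above 0. This was NPM1, nucleophosmin, at 2349 CPM at 12 h and 3346 CPM at 48 h. NCL, nucleolin, was at 1592, 1062 and 851 CPM along DMSO, BOP1, which acts in large subunit processing, at 148, 111 and 67.9 CPM, and MYC at 378, 344 and 314 CPM. This list had 3 steady fallers, and its median went the opposite way to that of the ribosomal proteins. At 12 h the list stood at 0.17 against untreated and at 48 h at -0.46.

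Heat shock genes had a median log2 ratio of -0.63 from 12 to 48 h, with 1 of 18 genes above 0. HSP90AA1, a cytosolic chaperone, was at 1838 CPM untreated and 2654, 2031 and 1308 CPM along DMSO, and HSPA8, the constitutive HSC70, at 2600 CPM untreated and 5721, 5800 and 3802 CPM. The group was high at 12 h, with a median of 0.43 against untreated and 4 of 18 genes 2-fold higher where 3.03% of all genes were. Targets of p53 had a median of -0.43 from 12 to 48 h, with 5 of 29 genes 2-fold lower where 3.06% of all genes were, among them CDKN1A (p21), at 224, 201 and 108 CPM, and AEN, an apoptosis-enhancing nuclease, at 113, 85.9 and 45.3 CPM. MDM2 did not meet the 2-fold limit, at 176, 193 and 120 CPM.

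Compared with untreated, 388 genes (2.3%) were at least 2-fold lower and 248 genes (1.47%) at least 2-fold higher at all 3 time points. The filter acted unequally on these 2 numbers. It kept genes counted only under DMSO in at least 2 libraries, and dropped genes counted only in the untreated library. With 10 or more counts in each of the 4 libraries, 317 were lower and 135 higher, and with no filter 2349 and 980. At the single times, 6.49%, 6.52% and 6.84% of genes were lower and 3.03%, 4.33% and 7.41% higher at 12, 24 and 48 h. Of the genes lower at 12 h, 35.4% were lower at all 3 times, and of those higher at 12 h, 48.5% were higher at all 3. Next to the limits, SRSF5, a splicing factor, was just inside the lower group, with its smallest difference at 48 h (344 CPM untreated, 171 CPM at 48 h), and RARA, the retinoic acid receptor alpha, was just outside it at 12 h (170 and 85.2 CPM). KHDC4, just inside the higher group, had a log2 ratio of 1.01 at 48 h, and ANKRA2, just outside, 1.00 at 12 h. For the steady courses, BBS10 (8.63 CPM at 12 h, 17.3 CPM at 48 h) was just inside the rise and PLSCR1 (74.2 and 148 CPM) just outside, and SLC2A5 (231 and 116 CPM) was just inside the fall and MARS2 (42.5 and 21.2 CPM) just outside.

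FOSB, an AP-1 subunit (chromosome 19, 45467995 to 45475179, plus strand), had the largest difference of the named genes. It stood at 127 CPM in the untreated library and at 0.661, 0.507 and 0.521 CPM at 12, 24 and 48 h, or 8539 counts against 44, 37 and 33. The log2 ratio at 12 h was -7.57 (95% counting interval -8.05 to -7.16). In the 9 other libraries of the inhibitor course, scaled together, FOSB ran from 0.490 to 1.89 CPM, and in the non-targeting control it was at 0.494 CPM on day 3 and 0.851 CPM on day 6. The untreated library was thus the one that stood apart. FOSB overlaps ERCC1.

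Immediate-early genes were lower than untreated as a group. Of 34 tested, 22, 24 and 24 were 2-fold lower along DMSO, where 6.49%, 6.52% and 6.84% of all genes were, 20 were lower at all 3 times, where 2.3% of all genes were, and 0 were 2-fold higher at any time. The median log2 ratio was -1.56, -1.50 and -1.81 at 12, 24 and 48 h. EGR3, a zinc finger factor, was at 43.6 CPM untreated and 0.541, 0.740 and 1.75 CPM along DMSO, and the nuclear receptor NR4A1 at 24.2 CPM untreated and 1.16, 1.23 and 1.47 CPM. NR4A3 was at 8.73 CPM untreated and 0.165, 0.151 and 0.174 CPM, and JUND at 249 CPM untreated and 63.3, 90.1 and 67.4 CPM. For all of these the untreated library was the high one, and EGR3 was also higher at 48 h than at 12 h of DMSO, with a log2 ratio of 1.68.

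At 48 h, 4 of the 34 genes were above 0: MYC, higher than untreated with a log2 ratio of 0.77 at 12 h and 0.50 at 48 h, the ETS factors ETV5 and ETV4, with 0.56 and 0.36 at 48 h, and the ERK phosphatase DUSP6, with 0.02. FOS and EGR1, the best-known members, differed less than FOSB, at 4.21 and 8.27 CPM untreated and 2.12 and 4.13 CPM at 12 h. The binding site of serum response factor, the CArG box, was in 1.29% of all promoters and in 1.01% of those of the genes tested. It was found in 1 of 24 promoters of this list, that of EGR1, at 95 and at 73 bases before the start. The sequence TGACGTCA, also searched, was in 2 of the 24 (8.33%), JUND and DUSP1, beside 3.16% of those of the genes tested. Both elements were searched after the values had been seen. The CArG box of EGR1 is shown to place the gene, with the element 95 bases before the start in capitals:
EGR1, chr5:138465364-138465393 (plus strand): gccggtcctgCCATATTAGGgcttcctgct

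Chemokines and other NF-kB targets were lower in the same direction. Of 26 tested, 17, 19 and 17 were 2-fold lower than untreated at 12, 24 and 48 h, beside 6.49%, 6.52% and 6.84% of all genes, 15 were lower at all 3 times, beside 2.3%, and the list median was -1.23, -1.55 and -1.22. CCL4, a chemokine of the MIP-1 family, was at 21.2 CPM untreated and 0.301, 0.425 and 0.947 CPM along DMSO, and its near-identical copy CCL4L2 at 21.8 CPM and 0.361, 0.206 and 0.678 CPM. The counts of this pair could have been split between the copies. CD83, an activation antigen of dendritic cells, was at 64.9 CPM untreated and 4.33, 5.26 and 4.07 CPM, and the inhibitor NFKBIA at 107 CPM untreated and 35.4, 34.0 and 32.4 CPM. CXCL8 was less apart, at 175, 121, 88.7 and 138 CPM, and IL1B was at 23.1, 34.5, 21.9 and 26.2 CPM, above untreated at 12 h and 48 h and below it at 24 h.

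Among the other genes lower at all 3 times, TREM1, an amplifier of myeloid inflammation, was at 26.7 CPM untreated and 1.61, 0.713 and 0.647 CPM along DMSO. PHLDA1 was at 32.4 CPM and 1.91, 1.33 and 0.805 CPM, and RGCC, a regulator of the cell cycle, at 19.2 CPM and 0.842, 0.823 and 0.915 CPM. XIRP1, N4BP3 and SLC35E4 had log2 ratios at 12 h of -7.11, -5.73 and -4.23, the first resting on few DMSO counts, with an interval of -8.67 to -6.10. GATA2, the factor whose enhancer is moved in this line, was at 160, 70.0, 62.7 and 59.1 CPM at 0, 12, 24 and 48 h, so that it was 2-fold lower at each time. Hypoxia response genes had a median of -0.62 at 12 h and -0.15 at 48 h, with VEGFA at 38.8, 10.5, 10.3 and 21.9 CPM. The 13 mitochondrially encoded genes were below 0 at all 3 times, with medians of -0.97, -0.86 and -0.85. MT-CO1, a subunit of cytochrome c oxidase, was at 8131, 4180, 4685 and 4859 CPM.

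**Figure D2:**
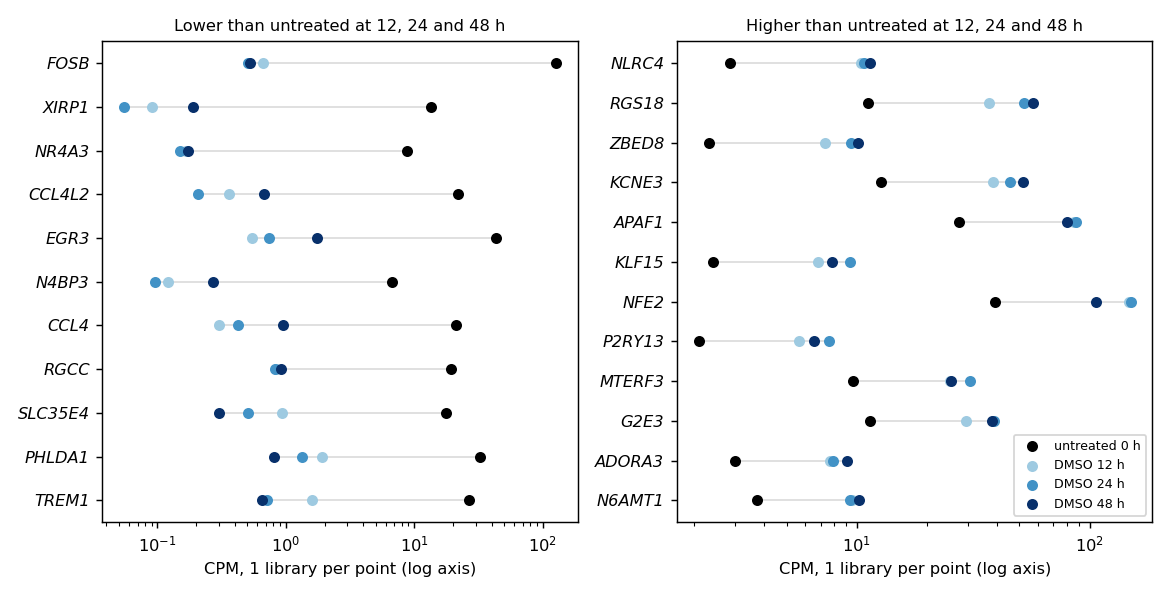
Level in CPM on a log axis of 11 genes that were lower (left) and 12 that were higher (right) than untreated at all 3 times, 1 library per point, black for untreated and blue from light to dark for DMSO at 12, 24 and 48 h. The gap is widest for FOSB, at 127 CPM against 0.507 to 0.661 CPM. By the rule that chose the genes, the 3 DMSO points lie below the untreated point on the left and above it on the right.

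Among the genes higher than untreated at all 3 times, NLRC4, an inflammasome component (chromosome 2, 32224453 to 32265732, minus strand), was at 2.87 CPM untreated and 10.4, 10.7 and 11.4 CPM along DMSO, with a log2 ratio at 12 h of 1.86 (1.63 to 2.10). NFE2, a transcription factor of megakaryocytes and erythroid cells, was at 39.2 CPM untreated and 147, 150 and 106 CPM. RGS18, a regulator of G protein signaling in platelets and their precursors, was at 11.2 CPM untreated and 37.1, 52.5 and 57.0 CPM. That the 3 DMSO libraries lay above the untreated library in each of these follows from the rule that chose them.

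APAF1, the scaffold of the apoptosome, was at 27.5 CPM untreated and 86.0, 87.7 and 80.1 CPM, and KCNE3, a potassium channel subunit, at 12.7 CPM and 38.3, 45.5 and 51.8 CPM. MYB, the hematopoietic transcription factor, was at 106 CPM untreated and 267, 245 and 228 CPM. P2RY13 and ADORA3, purinergic and adenosine receptors, were at 2.10 and 3.02 CPM untreated and at 5.64 and 7.67 CPM at 12 h. P2RY13 overlaps MED12L, and ADORA3 overlaps TMIGD3. Of the 248 genes, 181 were below 5 CPM in all 4 libraries, beside 6558 of the 16892 genes tested. Protein coding genes made up 55.6% of the 248, against 74.6% of the genes tested. Among genes with 5 CPM or more in at least 1 library, the shares were 94.0% of 67 and 95.2% of 10334. The lower share of the group was thus not seen at these levels.

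Cell cycle genes were slightly higher under DMSO than in the untreated library. Of 54 G2/M genes, 47, 44 and 37 had a log2 ratio above 0 at 12, 24 and 48 h, with medians of 0.35, 0.50 and 0.39, where the median over all genes tested was -0.01, 0.00 and 0.02. The 43 S phase genes had medians of 0.20, 0.21 and 0.14. AURKA, a mitotic kinase, was at 59.1, 119, 133 and 101 CPM at 0, 12, 24 and 48 h, CDK1 at 91.6, 137, 163 and 164 CPM, and MKI67 at 267, 294, 226 and 193 CPM. Between 12 h and 48 h of DMSO the medians of the lists were -0.10 and -0.11.

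**Figure D3:**
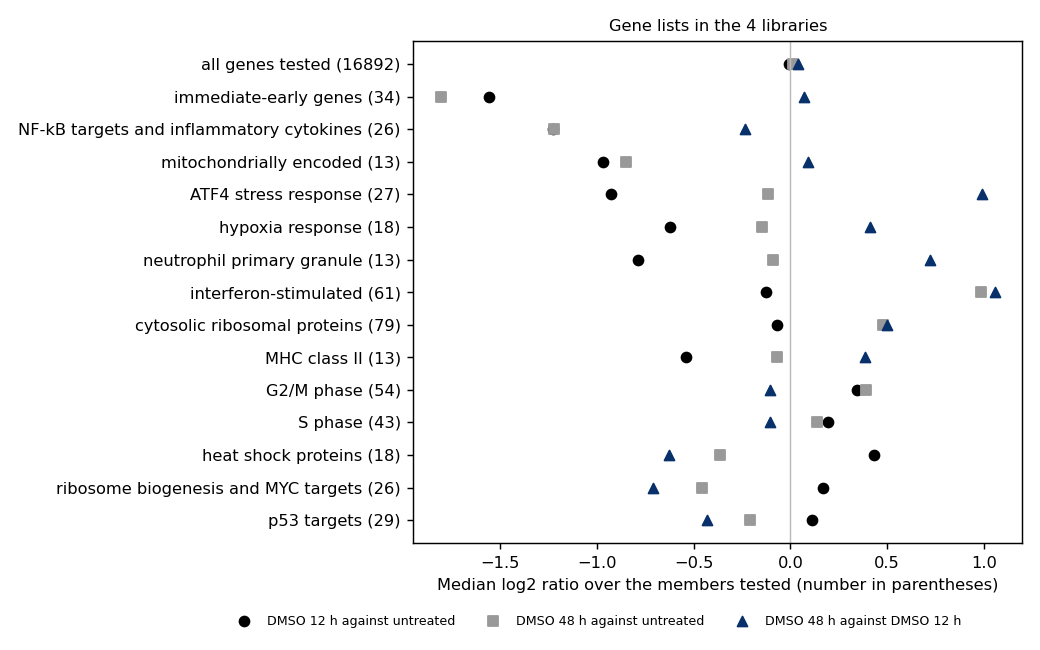
Median log2 ratio of 14 gene lists and of all genes tested, with the number of members in parentheses, for DMSO at 12 h against untreated (black circles), DMSO at 48 h against untreated (grey squares) and DMSO at 48 h against 12 h (blue triangles). Immediate-early genes are low in both comparisons with untreated and near 0 along DMSO, whereas interferon-stimulated genes are near 0 at 12 h and near 1 for 48 h against 12 h.

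Among the lists not plotted, the median ratio of 48 h to 12 h ran from -0.31, for targets of NRF2, to 0.71, for sterol efflux genes. Of the latter, 8 were tested, and ABCG1, a cholesterol exporter, was at 17.8, 14.6, 14.4 and 29.5 CPM at 0, 12, 24 and 48 h. Monocyte and macrophage genes had a median of 0.26, with MRC1, the mannose receptor, at 205, 112, 113 and 292 CPM and CLEC7A, the beta-glucan receptor, at 45.8, 30.4, 33.5 and 72.8 CPM, whereas CD14 was lower. The stem and progenitor list was at -0.00.

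At 2-fold on both sides, 45 genes (0.266%) were higher and 127 (0.752%) lower at 24 h than at 12 h and at 48 h. With at least 100 counts in 2 libraries these were 14 and 7. The conditions differ from those of the steady groups, so the numbers cannot be set against each other.

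The steady genes were then looked up in courses that share no library with the DMSO course. Of the 244 risers, 232 (95.1%) had a log2 ratio of 48 h to 12 h above 0 under olaparib and 213 (87.3%) under talazoparib, where 50.5% and 49.2% of all genes tested did. The median ratio of the risers was 1.38 and 1.27 in these courses. IFI44L had 5.79 and 5.22, IFIT1 4.35 and 3.29, and ISG15 3.58 and 3.36, each above its own DMSO value. At 2-fold, 168 risers (68.9%) were higher under olaparib and 156 (63.9%) under talazoparib, beside 15.1% and 17.5% of all genes. Of the 185 fallers, 148 (80.0%) were below 0 under olaparib and 134 (72.4%) under talazoparib, where 49.5% and 50.8% of all genes were, and 97 (52.4%) and 86 (46.5%) were 2-fold lower, beside 9.49% and 15.6%. The inhibitors act as well in these libraries, and their part cannot be told apart from that of time.

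In the non-targeting control, transduced cells compared at day 6 against day 3, the shares above or below 0 lay on the other side of the background. Of the risers, 89 (36.5%) were above 0, beside 49.5% of all genes, and of the fallers 24 of 185 were below 0, beside 50.5%. At 2-fold, 15 risers (6.15%) were higher and 1 faller (0.541%) lower, beside 4.2% and 4.46% of all genes. In the opposite directions, 26 risers (10.7%) were 2-fold lower and 14 fallers (7.57%) 2-fold higher, beside 4.46% and 4.2%. CD69, for one, was lower at day 6, with a log2 ratio of -1.51, and SEMA6B higher, with 1.19. The interferon list as a whole was above 0 there, with a median of 0.64, and had 1.75 under olaparib and 1.34 under talazoparib. Ribosomal protein genes had a median of -0.68 in the control and 1.02 and 1.11 under the inhibitors. Their share of the counts was 24.2% at day 3 and 16.9% at day 6, and the part of this in the result was not tested.

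**Figure D4:**
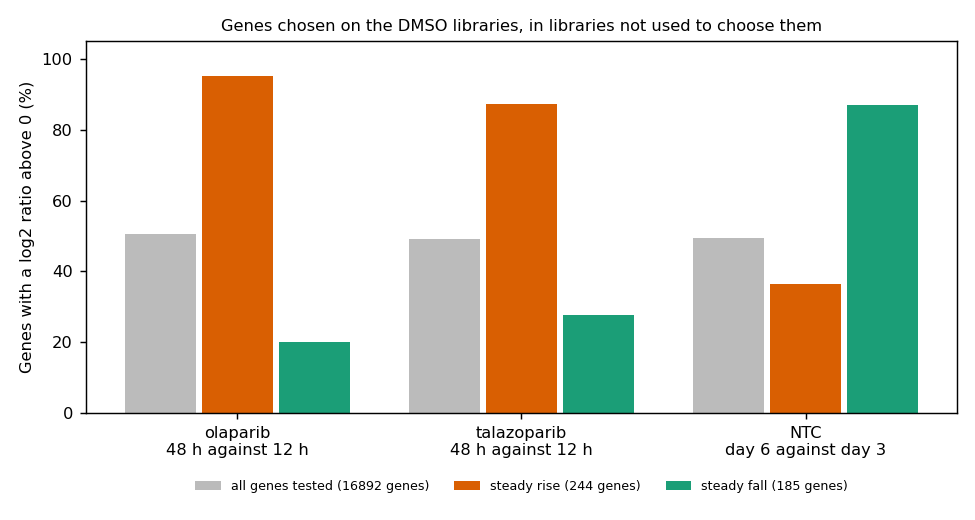
Percent of genes with a log2 ratio above 0 in 3 courses that were not used to choose the genes, for all 16892 genes tested (grey), the 244 steady risers (orange) and the 185 steady fallers (green). Under olaparib and talazoparib the risers stand at 95.1% and 87.3% and the fallers at 20.0% and 27.6%, and in the non-targeting control the order is turned, at 36.5% and 87.0%.

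The groups differed in GC content of the transcript. The median was 43.4% for the steady risers and 57.7% for the steady fallers, 44.9% for the genes higher and 54.8% for those lower than untreated at all 3 times, and 48.6% for all genes tested. Over quintiles of GC content, the median log2 ratio of 48 h to 12 h went from 0.21 in the lowest quintile to -0.23 in the highest, and that of 48 h to untreated from 0.41 to -0.42. The steady rise held for 2.78% of genes in the lowest quintile and 0.688% in the highest, and the steady fall for 0.179% and 2.75%. The mean of this GC content over genes, taken from the longest annotated transcript and weighted by counts, fell from 49.6% at 12 h to 48.7% at 48 h under DMSO. It was 49.1% at day 3 and 50.6% at day 6 in the non-targeting control. With ratios centred within 20 bins of GC content, an alternative chosen after seeing the data, the interferon list had a median of 1.02 for 48 h to 12 h, the ribosome biogenesis list -0.69 and the immediate-early list -1.35 at 12 h. The p53 list moved from -0.43 to -0.29 for 48 h to 12 h, and the hypoxia list from -0.62 to -0.74 at 12 h. Of the 244 risers 161, and of the 185 fallers 106, were also in the groups made from centred ratios. The part of base composition in the single genes was not tested.

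**Figure D5:**
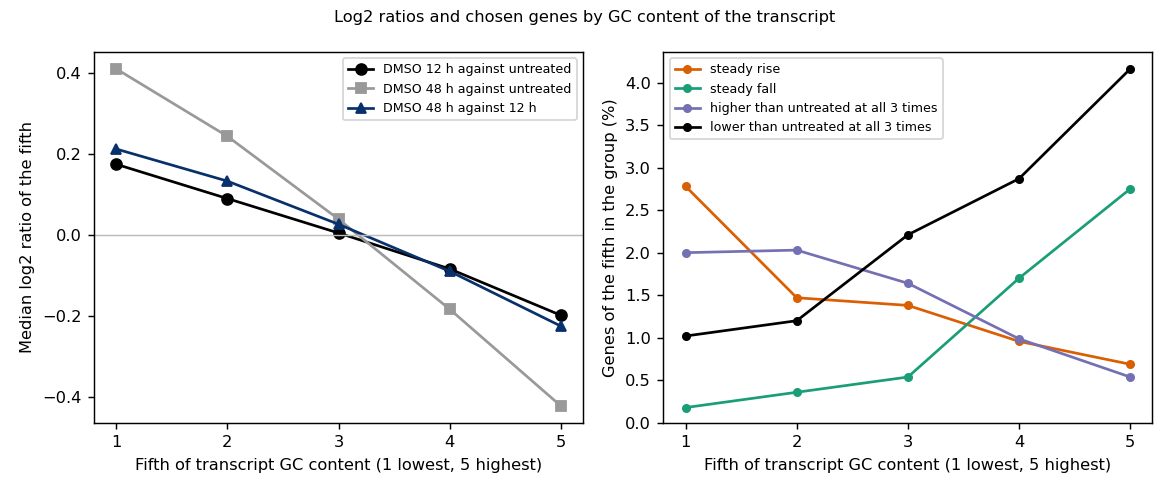
Left, median log2 ratio in each quintile of transcript GC content for DMSO at 12 h and 48 h against untreated and for DMSO at 48 h against 12 h. Right, percent of the genes of each quintile in the 4 groups. The medians run from 0.41 to -0.42 for 48 h against untreated, and the share of steady fallers from 0.179% to 2.75%.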

How the data were processed

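RNA was extracted with the RNeasy Plus Mini Kit and sequenced as paired-end reads after TruSeq Stranded mRNA library preparation. Per the labels, the authors' processing used STAR, Picard and featureCounts on hg38 (GRCh38), with versions, annotation release and strand setting not given in the sources used here. The deposited files hold raw read counts per gene and TPM values. The TPM values deposited by the authors divide by the gene span from start to end, and were not used further. Gene spans matched GENCODE release 29 in 46551 genes, from which transcript GC content was taken.

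From the counts, CPM and log2 ratios were computed with 0.5 counts added, TMM factors from edgeR 4.0.16 over genes with 10 or more counts in at least 2 of the 4 libraries, and exact conditional binomial intervals from SciPy 1.17.1. The scripts were tested on simulated data. Groups were taken from the labels, and 4 knockdown libraries were not used. Intervals and floors cover counting error only, since reads carried no molecular identifiers.

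The members, rules and the 41 gene lists were chosen with earlier results of these data known. Named genes had an assigned symbol and at least 5 CPM in 1 library: the 12 of the largest ratio in each steady or 3-time group, the genes next to the limits, the 3 most abundant and the 2 extreme members of each list, and the genes the study examined. Other list members given as examples, the CArG box and the sequence TGACGTCA were chosen after their values were seen. Alternatives were DESeq2 1.42.0 size factors, upper-quartile factors, library totals, other filters on low counts, 2 counts added, 1.5-fold, other conditions on the steps and GC centring. Values of some genes that met the naming rule are not reported here.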

Additional observations from a re-analysis of the deposited data

Results flagged for a closer look

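ACP5 and THBS1 moved in opposite directions in courses under the same contrast of 48 h to 12 h. ACP5 had a log2 ratio of -2.28 under DMSO, 1.34 under olaparib and 2.07 under talazoparib. THBS1 had -1.88 under DMSO, 1.36 under olaparib and 1.93 under talazoparib. With 1 library per point, these differences were not tested. CD14 had -1.53 under DMSO, 2.30 under olaparib and 3.18 under talazoparib, a like set of values. In CPM scaled over the inhibitor course, ACP5 was at 3.13 under DMSO, 53.7 under olaparib and 87.2 under talazoparib at 48 h, and THBS1 at 13.4, 385 and 306.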

How the results depend on the processing

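Counts of genes depended on the fold and on the filter on low counts. With 1.5-fold in place of 2-fold, 826 genes rose and 1130 fell steadily. Without the condition on the counting intervals of the steps these were 899 and 431, and with each step at 0.3 or more in its place 611 and 305. The balance of rise and fall moved with the scaling, from 244 and 185 genes to 329 and 118 with upper-quartile factors, 217 and 217 with DESeq2 size factors, and 203 and 235 with library totals. At 1.5-fold the other counts were 1002 higher than untreated at all 3 times, 963 lower than untreated at all 3 times, 225 apart at 24 h and higher, 387 apart at 24 h and lower, 1750 higher than untreated at 12 h, 2363 lower than untreated at 12 h, 2372 higher than untreated at 24 h, 2662 lower than untreated at 24 h, 3357 higher than untreated at 48 h, 3082 lower than untreated at 48 h, 1236 higher at 24 h than at 12 h, 921 lower at 24 h than at 12 h, 1834 higher at 48 h than at 24 h, 1034 lower at 48 h than at 24 h, 2876 higher at 48 h than at 12 h and 2029 lower at 48 h than at 12 h. With no filter on low counts they were 980 higher than untreated at all 3 times, 2349 lower than untreated at all 3 times, 1880 apart at 24 h and higher, 1267 apart at 24 h and lower, 3285 higher than untreated at 12 h, 5285 lower than untreated at 12 h, 3882 higher than untreated at 24 h, 5060 lower than untreated at 24 h, 4533 higher than untreated at 48 h, 5009 lower than untreated at 48 h, 3839 higher at 24 h than at 12 h, 3246 lower at 24 h than at 12 h, 4080 higher at 48 h than at 24 h, 3324 lower at 48 h than at 24 h, 4791 higher at 48 h than at 12 h and 3523 lower at 48 h than at 12 h. With at least 100 counts in 2 libraries they were 93 higher than untreated at all 3 times, 190 lower than untreated at all 3 times, 14 apart at 24 h and higher, 7 apart at 24 h and lower, 150 higher than untreated at 12 h, 373 lower than untreated at 12 h, 267 higher than untreated at 24 h, 426 lower than untreated at 24 h, 570 higher than untreated at 48 h, 569 lower than untreated at 48 h, 35 higher at 24 h than at 12 h, 24 lower at 24 h than at 12 h, 133 higher at 48 h than at 24 h, 47 lower at 48 h than at 24 h, 322 higher at 48 h than at 12 h and 165 lower at 48 h than at 12 h. With at least 10 counts in each of the 4 libraries, those that moved by over 1.5 times were 135 higher than untreated at all 3 times, 20 apart at 24 h and higher, 33 apart at 24 h and lower, 267 higher than untreated at 12 h, 458 higher than untreated at 24 h, 155 higher at 24 h than at 12 h, 101 lower at 24 h than at 12 h, 373 higher at 48 h than at 24 h, 131 lower at 48 h than at 24 h, 706 higher at 48 h than at 12 h and 312 lower at 48 h than at 12 h. The other 92 counts under these alternatives, and the 16 counts under GC centring, which was chosen after seeing the data, stayed within 1.5 times. The members changed more under GC centring: of the main groups it shared 161 of 244 risers, 106 of 185 fallers, 195 of 248 higher and 313 of 388 lower genes, and 19 list medians and 292 gene values moved, with 63 and 168 that did not. Of the genes called between 48 h and 12 h, 68.2% were higher, from 62.3% with library totals to 77.3% with upper-quartile factors, which put the median of all genes at 0.13 instead of 0.04. No paired analysis was possible because each condition was 1 library, and no library could be left out of a group for the same reason. The causes of these differences were not tested.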

Other observations

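IFNGR1, the ligand-binding chain of the interferon gamma receptor, had 4543, 5761, 6466 and 8167 counts at 0, 12, 24 and 48 h. IFNGR2 had 3796, 3229, 3269 and 3468 counts, and IFNLR1, the receptor chain for interferon lambda, 0 in all 4 libraries, at which a count of 0 allows up to 0.0413 to 0.0471 CPM before TMM scaling.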
